A study of Drosophila melanogaster with 4 samples.

Results

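NimB2 and atilla are blood cell surface and secreted protein genes. Both appear among the genes reported as changed in airways of fly larvae from a cross meant to switch on the immune deficiency (IMD) pathway. The members were taken as the rows of the authors' deposited table whose gene identifier is the locus of NimB2 (CG31839) or of atilla (CG6579). Each locus had 1 row, so the pair makes up 2 of the 244 rows of the table. RefSeq places both genes on chromosome arm 2L. No coordinates are given, because no source used here names the genome build of the array probes.

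The arrays set tracheae of third-instar Drosophila melanogaster larvae from the cross NP2610::UAS-PGRP-LE, in which a GAL4 driver of the airways turns on PGRP-LE, a receptor for bacterial peptidoglycan that starts the IMD pathway, against tracheae of the driver strain NP2610 alone. Both groups therefore carry the driver, and only the PGRP-LE larvae have a second parent strain, so PGRP-LE and genetic background cannot be told apart. Larvae of both groups were about 10 days old and kept at 22 °C, and each RNA was pooled from 20 pairs of tracheae. The comparison rests on 4 two-colour arrays, named in the titles as 2 biological replicates with a technical replicate each. The design text describes the driver as specific for the larval tracheal system, and no label says whether blood cells were removed from the dissected tracheae.

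Larval blood of the fly holds 3 kinds of cell: plasmatocytes, which engulf microbes and dead cells, crystal cells, which carry the enzymes of melanisation, and lamellocytes, large flat cells that wrap parasites and are rare in healthy larvae. The Nimrod genes encode proteins with a characteristic type of EGF repeat; NimC1 and eater are phagocytosis receptors of plasmatocytes, while the B-type members, NimB2 among them, are secreted. The product of atilla is the L1 antigen, a small protein of the Ly6 family held on the membrane by a lipid anchor, and its antibody is the standard stain for lamellocytes. Other Ly6 proteins of the fly, such as those of bou and crok, act in the septate junctions that seal epithelia, the airway included.

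Both genes were higher in the PGRP-LE tracheae, by similar and modest amounts. The value for NimB2 in the authors' deposited table was a mean log2 ratio of 0.80, or 1.74-fold, with an authors' SD of 0.67 over 8 spots. For atilla, the authors' deposited table gave 0.74, or 1.67-fold, with an authors' SD of 0.48 over 8 spots. The ratio is likely to be PGRP-LE cross over driver strain, because the table names its hybridisation group after the cross and the cross is channel 1 on every array, but neither file states the numerator. The table writes the driver's number as NP2160, while the labels have NP2610. A gene called higher here is higher in PGRP-LE tracheae on that reading. In tracheal RNA from whole dissected tissue, more cells of a type and more RNA per cell cannot be told apart.

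Of the 2 genes, 2 were higher, as were 76.6% of all rows in the authors' deposited table. The count for the pair is therefore close to what the whole table shows. The ratios of NimB2 and atilla differed by 0.06 on the log2 scale, well inside either SD, and the order of the pair in the authors' deposited table does not exceed their spread. Between them lay 14 rows of the authors' deposited table.

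NimB2 was measured less evenly than atilla. One SD either side of its mean in the authors' deposited table spans log2 ratios of 0.13 to 1.47, and the coefficient of variation, the SD divided by the mean, was 0.83. The same span for atilla in the authors' deposited table is 0.26 to 1.22, with a coefficient of variation of 0.65. No coefficient of variation in the authors' deposited table exceeded 0.97, so a span of 1 SD stays off 0 in every row. The median coefficient of variation over the 134 rows with 8 spots in the authors' deposited table was 0.55. Relative to their means, both genes thus varied more over their spots than the typical row of the same spot number. The spots are likely pooled over 4 arrays whose median ratios ran from -0.41 to 0.98, so differences between arrays enter this spread. Of those 134 rows, 117 had a smaller coefficient of variation than NimB2 and 94 a smaller one than atilla. The SD itself was smaller than that of NimB2 in 98 of the 134 rows and smaller than that of atilla in 66, which puts atilla near the middle.

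**Figure D1:**
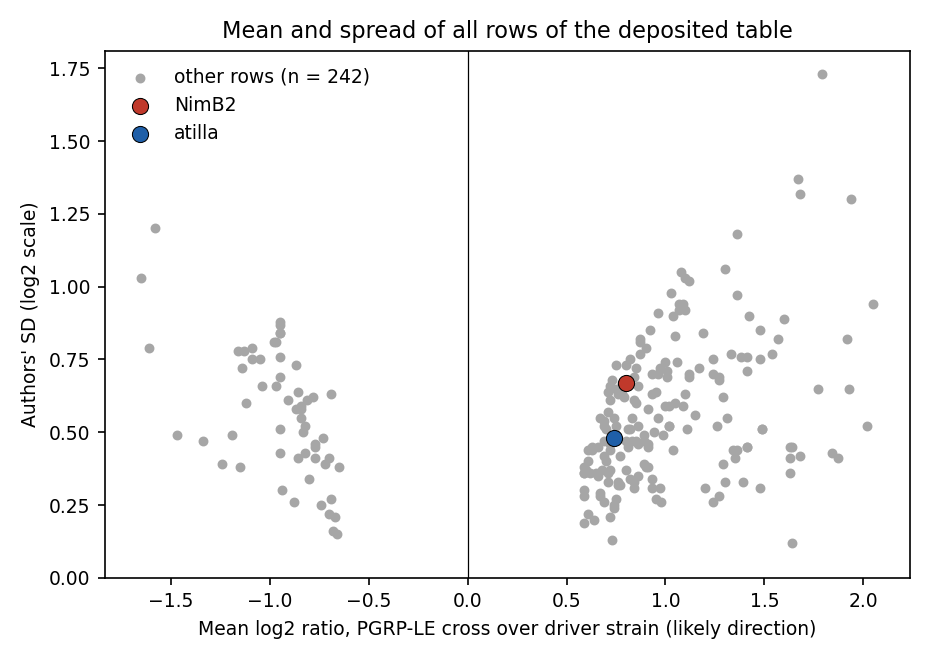
Mean log2 ratio (x axis, PGRP-LE cross over driver strain) against the authors' SD on the log2 scale (y axis) for the 244 rows of the authors' deposited table, 1 point per gene. NimB2 (red, 0.80 and 0.67) and atilla (blue, 0.74 and 0.48) lie in the lower part of the higher rows, and the empty band around 0 is where no gene was selected.

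In the order of ratios, the pair stood in the lower part of the higher genes. Of 187 higher rows, NimB2 ranked 126 from the top in the authors' deposited table and atilla 144, and each shared its mean with 3 other rows. The median of all higher rows in the authors' deposited table was 0.92. Spn43Ab, which encodes a serine protease inhibitor, and Elal, named Elastin-like in the file, had the same mean as NimB2, 0.80, in the authors' deposited table. Beside atilla, the authors' deposited table listed the bomanin gene BomT3, the transcription factor gene Irbp18 and the cuticle protein gene Cpr78Ca, each at 0.74. Spreads differed among these equal means: the SD in the authors' deposited table was 0.48 for atilla, against 0.55 for BomT3, 0.25 for Cpr78Ca and 0.24 for Irbp18.

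The table is a selected list, and its rows share limits: every positive mean was at least 0.59, every negative one at most -0.65, and the same ceiling of 0.97 held for the coefficient of variation. NimB2 and atilla passed these limits with 0.21 and 0.15 to spare on the log2 scale. The value table of the series, which holds 1 log2 ratio per spot and array but no gene names, shows how often such values occur. Its 32448 spots form 16224 pairs of neighbouring spots, and 3.02% of the pairs had an 8-spot mean and coefficient of variation inside all these limits. Higher pairs alone made up 1.71%. A mean at least as high as that of NimB2 with an SD no larger was found in 71 pairs (0.438%), and the same for atilla in 43 pairs (0.265%). By the mean alone, 5.24% of pairs were at least as high as NimB2 and 6.43% at least as high as atilla. These shares describe where the 2 values lie among the spots.

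**Figure D2:**
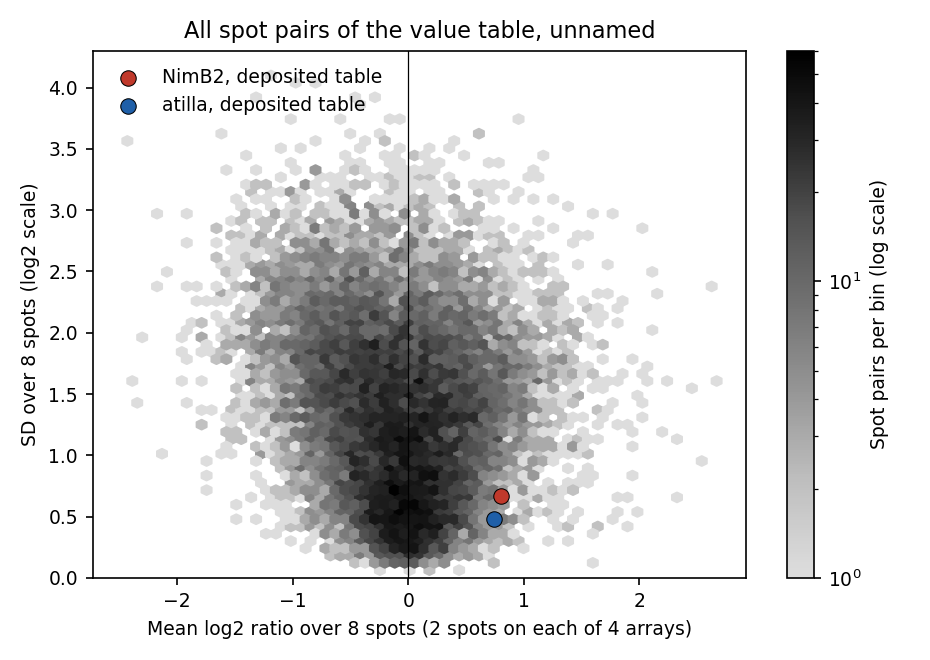
Mean log2 ratio over 8 spots (x axis) against the SD over the same spots (y axis, log2 scale) for all 16224 unnamed spot pairs of the value table, shaded by the number of pairs on a log scale. The values of NimB2 (red) and atilla (blue) in the authors' deposited table lie at the right edge of the dense region, and 71 and 43 pairs have a mean as high with an SD as small.

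How well the arrays repeat bears on both members. Array medians in the value table ran from -0.41 to 0.98, so the deposited ratios were not centred. Across all spot pairs, Pearson's r between arrays ran from -0.134 to 0.156, and the arrays of one RNA pair had -0.134 (replicate 1) and 0.009 (replicate 2); pairs on 1 array are not independent replicates. The labels do not settle the dyes: 1 array lists Cy5 for both channels, and another lists Cy5 and Cy3 where its protocol names Cy3 and Cy5. With the arrays of each biological replicate averaged, limma's moderated test called 0 of 16224 pairs at an adjusted p under 0.05, and 580 pairs (3.57%) had an unadjusted p under 0.05. No spot carries a name, so the fit gives no p for NimB2 or atilla, and the authors' SD is a spread over spots and not an error between animals.

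The deposited means were taken from these spots without any change of sign. Of the 134 rows with 8 spots in the authors' deposited table, 117 had a mean and an SD equal, within a tolerance of 0.0051 that covers rounding, to those of at least 1 spot pair. Over 31 other readings, with signs of single arrays turned or arrays centred, between 1 and 21 rows did. The 8 spots of NimB2 and of atilla are thus likely to be 2 spots on each of 4 arrays, averaged with no sign turned. Centring each array on its median would then give 0.77 for NimB2 and 0.71 for atilla. Such a match cannot show that the same sample is the numerator on every array, because values averaged as deposited match either way.

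Of 12 family members looked up, NimB2 alone appeared in the authors' deposited table (8.3%), against 3.02% of all spot pairs inside the limits of the table. NimB2 was chosen because it has a row, so this count is no evidence about the family. The 3.02% are 490 pairs that meet limits read off the table itself, which has 244 rows, so it is not the share of genes with a row. That share could not be counted, because spots have no names. At shares as small as 3.02% few members of any short list would have a row. The counts of listed genes from here on are set beside the 3.02% with this limit. Those without a row were the B-type genes NimB1, NimB3, NimB4 and NimB5, the single A-type gene NimA, NimC1, NimC2, NimC3, NimC4, a receptor for dying cells, and the engulfment receptors eater and drpr. Most of them lie together on 2L. Going outward from NimB2 on one side, RefSeq lists NimB3, NimB4, NimB5, He and NimC1, and on the other NimB1 and NimA, followed by Vajk3, Vajk2 and CG42711. None of these 10 nearest genes had a row in the authors' deposited table, which at a share of 3.02% is no result about the stretch. RefSeq gives an older identifier shared by NimB2, NimB3 and NimB4. The row uses the current number of NimB2, and which transcripts its probe detects was not tested.

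For atilla, the lookup gave a like picture. It was 1 of 8 Ly6 genes in the authors' deposited table (12.5%, against 3.02% of spot pairs). Because atilla too was chosen for having a row, that count is no evidence about the Ly6 family. The genes bou, crok, cold and crim, which are needed for septate junctions, had no row, nor had rtv, qvr and twit. The gene crok lies 3 places from atilla on 2L. Neither it nor the 9 other nearest genes, among them bru1, which encodes a translational repressor, had a row, which is no result at that share. Gene numbers close to those of the pair were looked up as well. The only identifier of the authors' deposited table within 20 numbers of NimB2 was that of Mgat3, 10 away, on the same arm, at 0.85. For atilla there was none, and the nearest, mthl3 on another arm, was 49 away.

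The lists for blood cells in general, crystal cells and lamellocytes together named 25 genes, of which 2 (8.0%) were in the authors' deposited table, against 3.02% of spot pairs inside its limits. These 2 are NimB2 and atilla, which were chosen because they have a row, so the count is no evidence about blood cell genes. Both were higher, as were 76.6% of all rows, and their median in the authors' deposited table was 0.77 against 0.82 for all 244 rows. No row was found for He, which encodes a surface protein of most larval blood cells, for srp and ush, which encode transcription factors of blood cell formation, or for the plasmatocyte genes Hml, Pxn, NimC1, eater, crq and Sr-CI. The collagen genes Col4a1 and vkg, which blood cells and fat body both use, had none either. The crystal cell genes without a row were lz, their Runx factor, peb, and the prophenoloxidase genes PPO1 and PPO2 (0 of 4 genes listed, a count too small to read at a share of 3.02%). Of 7 lamellocyte genes, atilla was the 1 listed (14.3%, against the same 3.02%). PPO3, the prophenoloxidase of lamellocytes, the integrin genes mys, ItgaPS4 and Itgbn, the kinase gene msn and the filamin gene cher were not.

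A gene without a row was not selected, or not measured, or not on the array, so these absences give no level for any of them. The 14 tracheal genes looked up as a check of the tissue, among them the transcription factor gene trh, the FGF receptor gene btl and the chitin deacetylase genes serp and verm, had no row either. The label "Trachea" therefore could not be checked against the data. Whether the ratios of NimB2 and atilla come from blood cells attached to the tracheae or from the airway epithelium itself was not tested, and ratios pooled over whole tissue cannot tell them apart.

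Few markers of other tissues that could be dissected along with tracheae had a row, and these were lower except for Tsf1. From the fat body list (2 of 8 genes), the authors' deposited table had Tsf1 at 0.70 and Lsp2 at -0.86. It also had Mf at -1.09 from muscle (1 of 9), fne at -0.95 from neurons (1 of 5) and Jon99Fi at -1.58 from the gut (1 of 6). The authors' SD was 0.40 for Tsf1, 0.41 for Lsp2, 0.75 for Mf, 0.84 for fne and 1.20 for Jon99Fi. Set beside 3.02% of spot pairs, counts this small are no result about any of these tissues. Of all 244 rows of the authors' deposited table, 57 were lower. The part of these markers in the ratios of NimB2 and atilla was not tested. The genes of the IMD response that had a row had higher means than the pair. Of 14 antimicrobial peptide genes looked up, 7 were in the authors' deposited table (50%, against 3.02% of spot pairs), all higher, as were 76.6% of all rows. Their median in the authors' deposited table was 1.20, and the lowest of them, DptB at 0.86, was above NimB2. Of 14 IMD pathway genes looked up, 2 were in the authors' deposited table (14.3%, against 3.02% of spot pairs). No row was found for the others, among them PGRP-LB, PGRP-SC2 and pirk. The 2 with a row, PGRP-SD and Rel, had means of 1.17 and 0.96 in the authors' deposited table. Spans of 1 SD around the mean were compared for these 9 genes with those of the pair. The span of AttC lay wholly above those of NimB2 and atilla, and the spans of AttA and CecA2 lay above that of atilla but overlapped that of NimB2. Those of the other 6 genes overlapped both. PGRP-LE itself had no row, so the overexpression could not be checked.

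**Figure D3:**
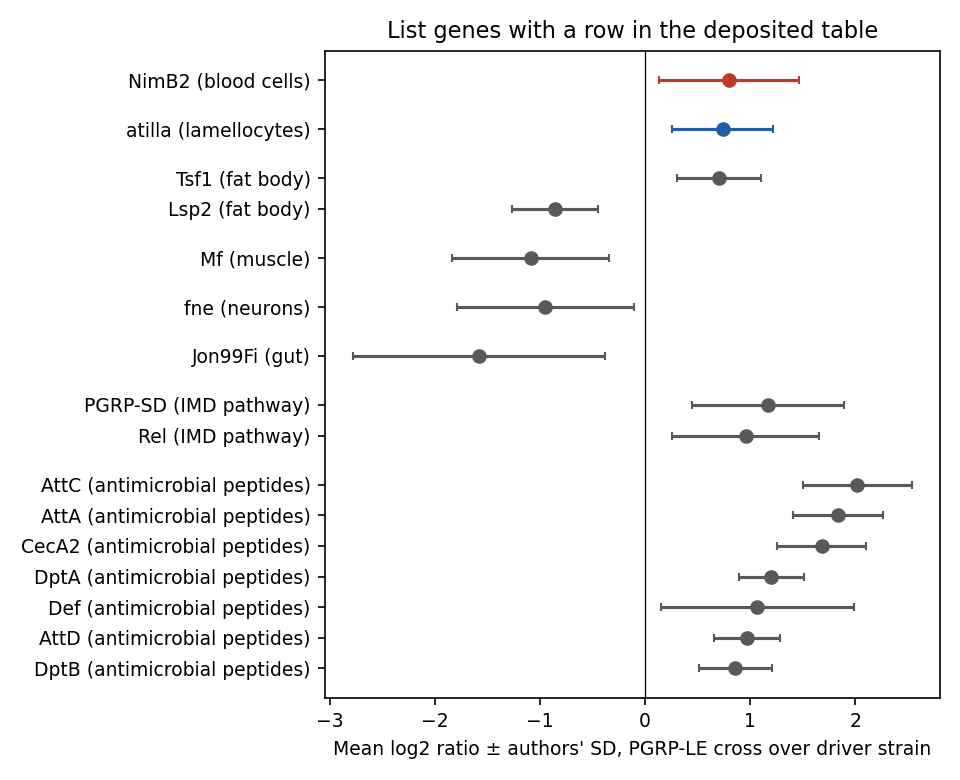
Mean log2 ratio (x axis, PGRP-LE cross over driver strain) for every gene of the marker lists that has a row in the authors' deposited table, with bars of 1 authors' SD over spots. NimB2 (red) and atilla (blue) are higher at 0.80 and 0.74, beside Tsf1 at 0.70, while Lsp2, Mf, fne and Jon99Fi are lower.

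The annotation in the file gives NimB2 the term extracellular, among others, and leaves atilla without any term. NimB2 shares the term extracellular with 13 other rows of the authors' deposited table, of which 11 were higher and 2 lower. These 13 rows of the authors' deposited table spanned -0.86 to 2.02 with a median of 1.30, so NimB2 at 0.80 lay below the middle of them. The others include the peptide genes AttC, AttA and CecA2, the recognition protein gene PGRP-SD, Obp83b and Obp56a, which encode odorant-binding proteins, and gbb, which encodes a BMP ligand. Under signal transduction, 5 other rows were listed, 3 higher and 2 lower, Rel among them. No other row of the authors' deposited table carried the term cell-matrix adhesion, and 1, gbb at -0.77, carried mesoderm development.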

How the data were processed

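Log2 ratios of 4 two-colour arrays of larval tracheae were used. The authors deposited a table of genes selected from SAM and GeneTraffic output, per the series' design text, with a mean log2 ratio over all arrays, its standard deviation, a coefficient of variation (a ratio of the 2) and the number of valid spots, per the file headers. The authors also deposited a log2 value for each of 32448 spots per array; its rows have numbers and no gene names, so no row was named. No source used here states the background correction, the normalization or the thresholds of selection. The number of arrays limits the precision.

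Identifiers were matched to RefSeq (assembly Release 6) for names and gene order: 227 by locus tag and 13 by a unique older identifier, with 4 unmatched. Rows of neighbouring spots were paired, since they correlated at 0.307 to 0.555 within pairs and at 0.181 to 0.302 between adjacent pairs. Ratios were tested against 0 across pairs with limma 3.58.1 in R 4.3.3, after averaging the arrays of each biological replicate, with Benjamini-Hochberg adjustment. The fit was also run on simulated data, with changes far larger than the ratios of NimB2 and atilla. That run does not show how the fit handles ratios of their size. Tables and plots used Python 3.11.15, pandas 2.3.3, numpy 2.4.6 and matplotlib 3.10.9. Named genes were the members, the listed families and markers, and the 3 rows above and below each member by mean, of which some are printed; genes sharing an annotation with NimB2 were chosen after the values were seen. The planned naming of genes most like each member over the arrays could not be made, as spots have no names. Members and lists were chosen with earlier results of these data known. Nothing in the labels says that replicates came from separate crosses, so p-values measure only the spread between these samples.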

Additional observations from a re-analysis of the deposited data

How the results depend on the processing

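Read with the ratio turned on all arrays, NimB2 stands at -0.80, atilla at -0.74 and the median of the listed blood cell genes at -0.77. Centring arrays on their medians takes 0.03 off every 8-spot mean, which gives 0.77, 0.71 and 0.74; it could not have turned any of the 3 and shows no stability. The count of 0 called spot pairs was also 0 with the biological replicate as a random block, where the block correlation was -0.354. It was 0 too with the sign turned on technical replicate 2, alone or together with biological replicate 1. No other turn of 1 or 2 arrays was fitted. Leaving out each array in turn, or taking an adjusted p under 0.1, also gave 0. With 2 biological replicates the test has little power, so these repeats of 0 show no stability. The count was 9 after centring, 580 by unadjusted p, and 244 genes are in the authors' deposited table. The cause of these differences was not tested. Leaving out a replicate or array for the members, single probes and other spot minimums could not be run without spot names, nor a test without replicate 1 or 2, which leaves 1 replicate. No paired analysis was possible because the series has 1 group. The 2 biological replicates limit the precision, and the 8 spots of each member are not replicates of the comparison.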

Other observations

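Spots of the value table have no names, but 1 of its 16224 spot pairs had the mean and SD that the authors' deposited table gives for NimB2, and 1 had those of atilla. These pairs are not assigned to the genes here: 17 of 134 rows with 8 spots had no such pair and 6 had several, and 12 pairs lay within 0.05 of both values of NimB2 and 5 within 0.05 of those of atilla.

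The pair with the values of NimB2 had log2 ratios of 0.94 and 0.84 on the array of biological replicate 1 and 0.21 and 0.17 on its technical replicate. On the array of biological replicate 2 it had 1.79 and 1.77, and on that technical replicate 0.37 and 0.32. The 2 spots of an array differ by at most 0.10 on each array, while the array means run from 0.19 to 1.78. Against all pairs of the same array, 54.1%, 25%, 1.8% and 15.9% were higher, in the order given.

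The pair with the values of atilla had 1.05 and 0.94 on biological replicate 1, 1.03 and 0.84 on its technical replicate, and 1.10 and 0.99 on biological replicate 2. On the technical replicate of biological replicate 2 it had 0.08 and -0.13. The first 3 arrays thus lie between 0.94 and 1.05 as means of both spots, and the fourth is at -0.03. The shares of pairs that were higher were 50.1%, 9.8%, 6.1% and 29.7% in the same order. These are values of unnamed spots, with no test.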
